A study of Mus musculus with 11 samples.

Results

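The 4 Hox gene clusters of the mouse were examined as targets of HIV integration in fibroblasts in which 11 different proteins, in turn, carried the integrase-binding domain of LEDGF. The members are the 39 protein-coding genes named Hoxa, Hoxb, Hoxc or Hoxd with a number, of 22350 protein-coding genes in the annotation of mm9. Their 40 gene models, with 5 kb added on each side, merged into 10 windows of 455.4 kb in all, which is 0.0173% of chromosomes 1 to 19 and X. A site is a distinct chromosome, position and strand within a library. The windows held 422 of the 831994 sites, or 0.0507%, and none of these 422 positions occurred in more than 1 library, although 5274 positions did over the whole genome.

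Hox genes encode homeodomain transcription factors that give cells their position along the body and limb axes. Within each cluster the genes are transcribed in the same direction and lie in the order of their use: genes of low paralogue number are activated early and anteriorly, and genes of high number late and posteriorly. Polycomb proteins keep unused parts of a cluster silent, and MLL and Trithorax proteins keep used parts active. Fibroblasts retain a Hox pattern that reflects the part of the body they came from, so in embryonic fibroblasts some of the genes are known to be active and others silent. Expression was not measured in these samples.

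All 11 libraries came from C57BL/6 mouse embryonic fibroblasts (MEF) of genotype LEDGF-/-, so the host factor that tethers HIV integrase to chromatin is missing from them. Each received by electroporation a plasmid for 1 fusion to LEDGF-IBD, was infected with HIV 24 hours later and was grown for 3 more days. The NELF group had the subunits NELFA, NELFB, NELFCD and NELFE of the complex that holds RNA polymerase II near gene starts. The Integrator group had INTS9 and INTS11 of its cleavage module and INTS3, INIP, NABP1 and NABP2 of the associated single-strand DNA-binding complexes. SPT5, a subunit of the pausing and elongation factor DSIF, had 1 library. With a lone library per protein, different subunits of a complex serve as the replicates of a group, and p-values measure the spread between these samples, part of which may be technical. An untethered control was not analysed here, and values are set against uniform density over the genome. Libraries held 18753 sites (NELFE) to 197069 (INTS9), with a median of 41265. Read names place all 4 NELF libraries alone on 1 flow cell and SPT5 alone on another, so flow cell and group cannot be told apart in comparisons with them.

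As no position recurred between libraries, the densest 300 bases outside annotated exons are shown for the Hoxa and the Hoxd cluster, because they display how closely sites of different proteins fall together. They were chosen for their site counts. They are printed 5′ to 3′ on the plus strand of mm9, with a capital at each base next to viral DNA.
Upstream of Hoxa7: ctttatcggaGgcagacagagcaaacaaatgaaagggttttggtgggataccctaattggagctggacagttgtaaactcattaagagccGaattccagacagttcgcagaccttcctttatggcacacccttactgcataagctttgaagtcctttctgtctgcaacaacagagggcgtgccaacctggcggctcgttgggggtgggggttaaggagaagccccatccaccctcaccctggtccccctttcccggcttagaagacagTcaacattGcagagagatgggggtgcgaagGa
Upstream of Hoxd13: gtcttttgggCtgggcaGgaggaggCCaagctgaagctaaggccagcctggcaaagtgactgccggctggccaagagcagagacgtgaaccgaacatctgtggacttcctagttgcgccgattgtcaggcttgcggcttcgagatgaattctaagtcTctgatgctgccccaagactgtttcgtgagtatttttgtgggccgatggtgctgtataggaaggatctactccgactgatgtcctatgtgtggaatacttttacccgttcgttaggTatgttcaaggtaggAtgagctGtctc
The Hoxa stretch, chr6:52172005-52172304, lies 451 to 152 bases before the start of Hoxa7 and in no gene model. It held 5 sites, 2 of INTS9, 2 of SPT5 and 1 of NABP2, and 8 CG dinucleotides. The Hoxd stretch, chr2:74505382-74505681, lies 985 to 686 bases before the start of Hoxd13, also in no gene model. It held 8 sites, 5 of SPT5 and 3 of INTS9, and 12 CG dinucleotides. In it an INTS9 and an SPT5 site on the minus strand lay at neighbouring bases, 74505407 and 74505408.

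The bases before the transcript of Hoxb1, the only Hox gene with no site in any library, and of Hoxd1, with 1 site, are also shown. They are from RefSeq (table build GRCm38.p6, with CG in capitals) at the place where the same letters occur in mm9.
Upstream of Hoxb1: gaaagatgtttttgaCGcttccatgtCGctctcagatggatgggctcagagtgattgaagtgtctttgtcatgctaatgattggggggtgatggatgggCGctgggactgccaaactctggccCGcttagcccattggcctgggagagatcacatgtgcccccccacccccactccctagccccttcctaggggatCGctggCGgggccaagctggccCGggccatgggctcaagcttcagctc
Upstream of Hoxd1: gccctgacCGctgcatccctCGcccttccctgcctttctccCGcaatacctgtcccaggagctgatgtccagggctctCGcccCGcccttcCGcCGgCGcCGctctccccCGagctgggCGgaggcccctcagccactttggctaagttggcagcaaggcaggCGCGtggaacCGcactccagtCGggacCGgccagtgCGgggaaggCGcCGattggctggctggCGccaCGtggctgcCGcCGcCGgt
The Hoxb1 sequence is the plus strand of chr11:96226822-96227065 and has 7 CG in 244 bases. The Hoxd1 sequence is the plus strand of chr2:74600787-74601036 and has 24 CG in 250 bases. Neither stretch held a site. For stretches this short that is the likely count at uniform density, so it shows no contrast to the stretches above.

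All 11 libraries had more sites in the Hox windows than uniform density gives, and SPT5 had the highest density. The mean density was 2.86 ± 1.56 times uniform (SD, n = 11 libraries), or 49.3 ± 26.9 sites per 100000 sites of a library. SPT5 had 101 Hox sites, 123 per 100000, which is 7.13-fold (95% exact Poisson interval 5.81 to 8.67). In NELF the folds were 1.73 for NELFA from 9 sites, 3.00 for NELFB from 16, 1.97 for NELFCD from 14 and 3.09 for NELFE from 10, with a mean of 2.45 ± 0.697. In Integrator they were 2.53 for INTS3 from 42 sites, 1.16 for INIP from 5, 3.01 for NABP1 from 98, 2.497 for NABP2 from 38, 2.06 for INTS9 from 70 and 3.24 for INTS11 from 19, with a mean of 2.42 ± 0.743. Sites per 100000 were 29.9, 51.7, 33.9 and 53.3 for the NELF subunits in this order, and 43.6, 20.1, 52.0, 43.1, 35.5 and 56.0 for the Integrator libraries. The NELF values all lay within the range of Integrator. The SPT5 interval lay above the intervals of all 10 other libraries, and without SPT5 the mean of the others was 2.43 ± 0.684. The interval lay above uniform density in 9 libraries, the exceptions being NELFA and INIP. Intervals and limits from a count of 0 cover counting error only, since reads of PCR products without molecular identifiers are not independent molecules.

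**Figure D1:**
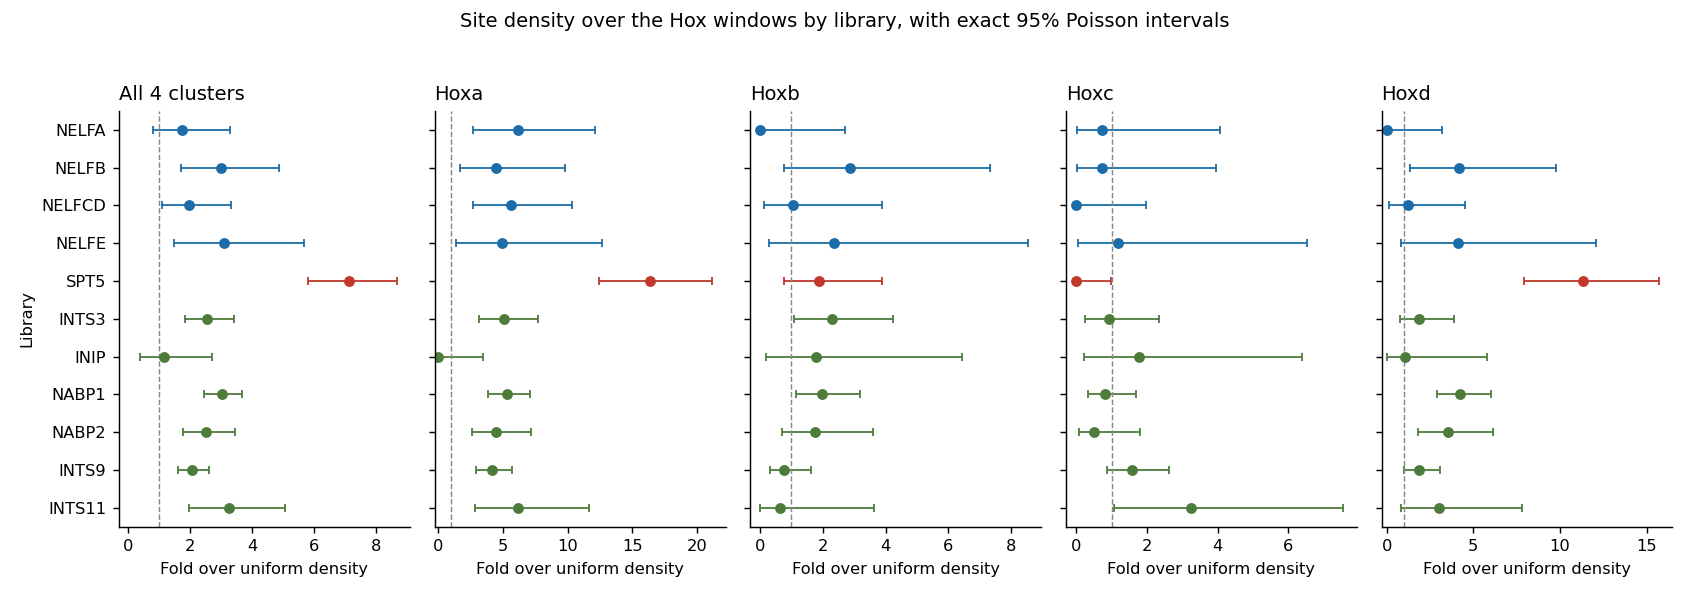
Site density over the Hox windows as fold over uniform density (x axes) in each library (rows; blue NELF, red SPT5, green Integrator), for all 4 clusters together and for each, with exact 95% Poisson intervals; the dashed line is uniform density. SPT5 stands apart over Hoxa (16.4-fold) and Hoxd (11.3-fold) and not over Hoxb (1.89-fold) or Hoxc (0 sites).

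The 4 clusters differed in how many sites they drew. Hoxa, on chromosome 6 from 52100366 to 52215874 with 11 genes, had 211 sites and a mean fold of 5.69 ± 3.92 (n = 11). Hoxd, on chromosome 2 from 74501367 to 74608200 with 9 genes, had 115 sites and 3.32 ± 3.02. Hoxb, on chromosome 11 from 96050630 to 96234570 with 10 genes, had 59 sites and 1.59 ± 0.857, and Hoxc, on chromosome 15 from 102746534 to 102872274 with 9 genes, had 37 sites and 1.04 ± 0.916. Windows of the 4 clusters were of like length, 114 kb, 102.1 kb, 119 kb and 119.9 kb in this order, so the counts can be set side by side.

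Over Hoxa, 10 of 11 libraries had an interval above uniform density. SPT5 reached 16.4-fold (12.4 to 21.2) from 58 sites. NELFA had 6.15-fold from 8 sites, NELFB 4.49 from 6, NELFCD 5.61 from 10 and NELFE 4.94 from 4, a mean of 5.30 ± 0.733. INTS3 had 5.05 from 21 sites, NABP1 5.28 from 43, NABP2 4.46 from 17, INTS9 4.11 from 35 and INTS11 6.14 from 9. NELF and Integrator thus lay close together apart from INIP, which had 0 sites in Hoxa. At its 24907 sites uniform density gives 1.08 sites there, so a count of 0 allows up to 2.79-fold by the limit of 3 counts, and the exact interval ends at 3.43.

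Over Hoxd, SPT5 again lay far above the others, with 11.3-fold (7.94 to 15.7) from 36 sites. NELFB had 4.17-fold from 5 sites, NELFE 4.13 from 3, NELFCD 1.25 from 2, and NELFA had none, which allows up to 2.58-fold by the limit of 3 counts, with an exact interval that ends at 3.17. NABP1 had 4.25 from 31 sites, NABP2 3.52 from 12, INTS11 3.05 from 4, INTS3 1.88 from 7, INTS9 1.84 from 14 and INIP 1.04 from 1. NELF, with 2.39 ± 2.10, and Integrator, with 2.59 ± 1.21, overlapped. The SPT5 interval lay above those of 8 of the 10 other libraries.

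Over Hoxb and Hoxc, SPT5 did not stand apart. In Hoxb it had 7 sites and 1.89-fold (0.759 to 3.89), between 0 for NELFA and 2.86 for NELFB, and the interval lay above uniform density only in INTS3 (10 sites, 2.30-fold) and NABP1 (17 sites, 1.996-fold). NELFCD, NELFE, INIP, NABP2, INTS9 and INTS11 had 2, 2, 2, 7, 7 and 1 sites there. In Hoxc, SPT5 had no site where uniform density gives 3.73, which allows up to 0.805-fold by the limit of 3 counts, with an exact interval that ends at 0.99. INTS9 had 14 Hoxc sites and 1.56-fold, NABP1 7 and 0.818, INTS11 5 and 3.24 (1.05 to 7.57), INTS3 4 and 0.914, NABP2 2 and 0.499 and INIP 2 and 1.77. NELFA, NELFB and NELFE had 1 site each and NELFCD none. Hoxc as a whole lay at uniform density, and only the INTS11 interval lay above it.

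Posterior Hox genes held most of the sites. Each base of the windows was assigned to the Hox gene with the nearest coding region, called its territory, so that overlapping models do not count a site more than once. Paralogue groups 1 to 4 (anterior, 12 genes) had 73 sites, groups 5 to 8 (central, 11 genes) 87 and groups 9 to 13 (posterior, 16 genes) 262. Posterior territories made up 37.6% of the length and held 62.1% of the sites. The mean folds were 1.31 ± 0.637 for anterior, 2.41 ± 0.608 for central and 4.71 ± 3.96 for posterior genes (n = 11), and posterior over anterior density was 3.61. The ratio was above 1 in 11 of 11 libraries, with a median of 3.20, though barely so in NELFCD, at 1.01 from 5 posterior and 5 anterior sites.

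SPT5 had the highest ratio, 14.3 (exact 95% interval for a ratio of Poisson counts 6.32 to 40.1), from 85 posterior and 6 anterior sites. NELFE had 7.08 from 7 and 1 sites, NABP2 4.65 from 23 and 5, NELFA 4.04 from 4 and 1, NELFB 3.37 from 10 and 3 and NABP1 3.20 from 57 and 18. INIP had 3.03 from 3 and 1, INTS9 2.40 from 38 and 16, INTS3 1.84 from 20 and 11 and INTS11 1.69 from 10 and 6. The interval lay above 1 in 4 libraries, SPT5, NABP1, NABP2 and INTS9, which are 4 of the 5 deepest. Posterior genes were the densest class in 9 libraries, and central genes in NELFA and NELFCD.

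**Figure D2:**
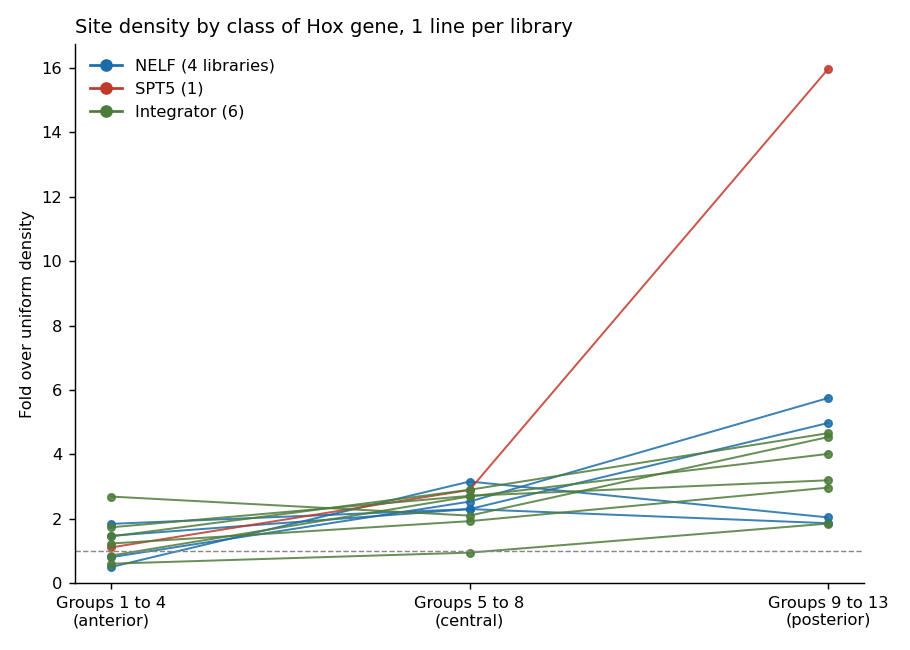
Fold over uniform density (y axis) of anterior, central and posterior Hox genes (x axis), with 1 line per library in the colour of its group; the dashed line is uniform density. SPT5 rises from 1.12 over anterior to 15.96 over posterior genes, while the other libraries end between 1.86 and 5.75.

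The posterior excess was largest in Hoxd and Hoxa. Posterior over anterior density was 12.2 in Hoxd, 3.69 in Hoxa, 2.96 in Hoxb and 0.733 in Hoxc, whose anterior class is Hoxc4 alone. Without Hoxa and Hoxd together the ratio was 1.34, and without SPT5 it was 2.71. In Hoxd the posterior genes held 98 of 115 sites and in Hoxa 129 of 211, against 18 of 59 in Hoxb and 17 of 37 in Hoxc.

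**Figure D3:**
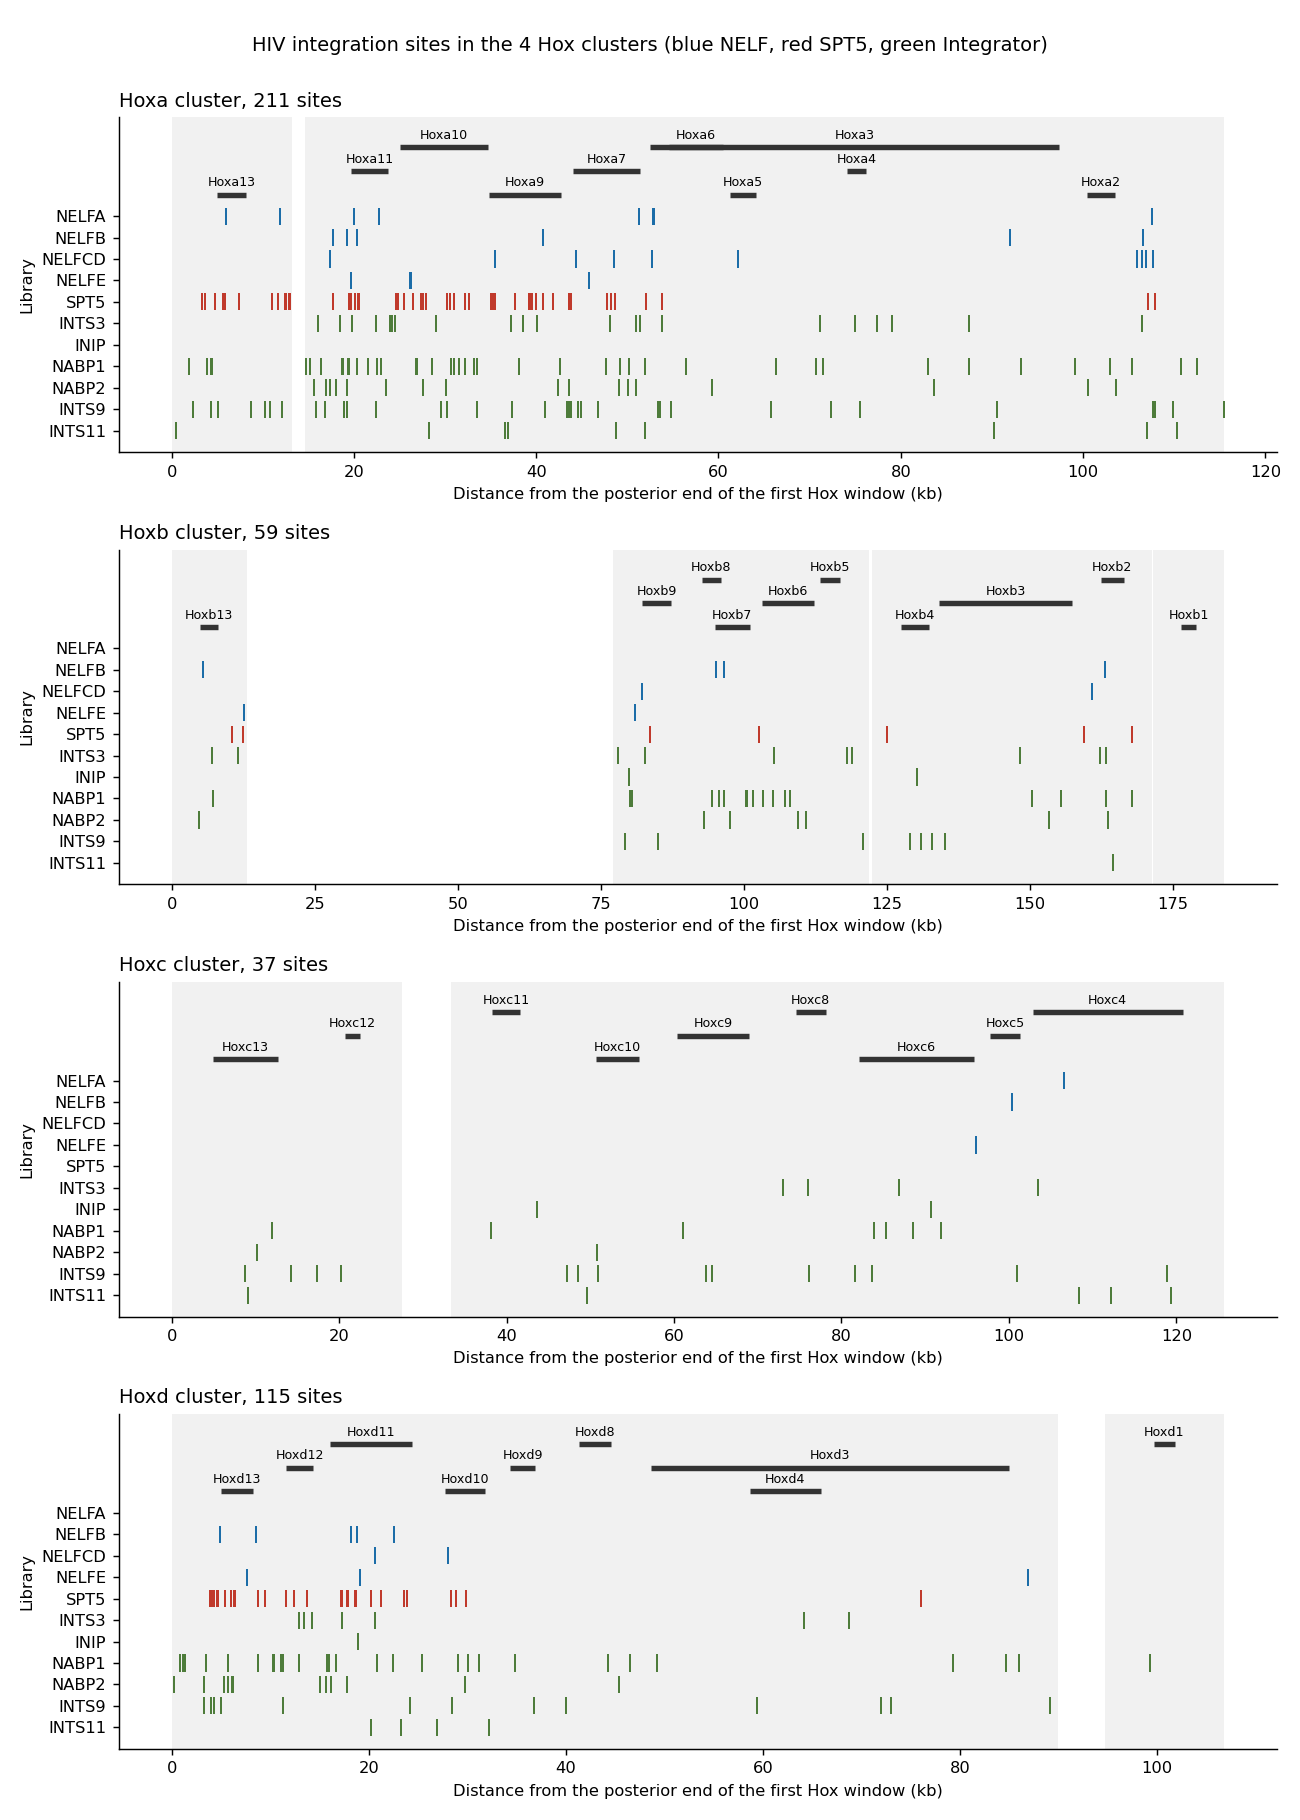
Every Hox site by library (rows) along each cluster; the x axis is the distance in kb from the posterior end of the first window, grey marks the windows and black bars the models of 38 genes. SPT5 sites (red) fill the posterior part of Hoxa and Hoxd and are sparse elsewhere.

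Sites were denser from Hoxa7 to Hoxa13 than from Hoxa2 to Hoxa6, and from Hoxd10 to Hoxd13 than from Hoxd1 to Hoxd9. The stretches compared here were chosen after their values had been seen and are given as a description. From Hoxa7 to Hoxa13, 165 sites lay in 52.2 kb, and from Hoxa2 to Hoxa6, 28 sites lay in 51.6 kb. SPT5 had 33.9-fold (25.5 to 44.1) from 55 sites in the first and 0.623-fold from 1 site in the second. NELF had 8.795 ± 2.88 against 0.723 ± 0.851, and Integrator 6.45 ± 3.26 against 1.79 ± 1.11. In all, 10 of 11 libraries were denser over Hoxa7 to Hoxa13, and INIP had no site in either. From Hoxd10 to Hoxd13, 96 sites lay in 32.9 kb, and from Hoxd1 to Hoxd9, 19 sites lay in 69.2 kb. SPT5 had 34.2-fold (23.8 to 47.6) from 35 sites against 0.465 from 1, NELF 6.35 ± 5.62 against 0.508 ± 1.02 and Integrator 6.65 ± 3.42 against 0.667 ± 0.6495. Again 10 of 11 libraries were denser on the posterior side, and NELFA had no site in either stretch.

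Sites of SPT5 lay close to each other there. Of its 101 Hox sites, 87 (86.1%) had another SPT5 site within 1 kb, against 49 of 98 for NABP1, 28 of 70 for INTS9, 10 of 42 for INTS3 and 12 of 38 for NABP2. The share of sites with a neighbour rises with the density of a library's sites, so it is no result apart from the densities above. NABP1 had nearly as many Hox sites as SPT5, spread over more of the clusters. The 50 kb beyond each end of a cluster had mean folds of 0.377 to 1.68, and SPT5 had 0 to 2.57 there, all far below the posterior stretches of Hoxa and Hoxd.

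Among the genes of Hoxa, Hoxa11 had the highest mean density, and Hoxa5, a regulator of lung development, the lowest. Hoxa11 (ENSMUSG00000038210.9, chromosome 6, 52192107 to 52196213, minus strand), which patterns the forearm, kidney and uterus, had 44 sites in a territory of 9.39 kb. SPT5 had 9 of them, 30.8-fold. NELFA had 2, NELFB 3, NELFCD 1 and NELFE 1, a mean of 16.9 ± 8.47-fold. NABP1 had 12, NABP2 6, INTS3 5, INTS9 5, and INIP and INTS11 none, a mean of 9.79 ± 8.66-fold. NELF and Integrator overlapped, and all 4 NELF libraries had a site. Within 1 kb of the RefSeq promoter of Hoxa11 there were 18 sites of 8 libraries. That promoter has 15 CG in 300 bases, and 34.6% of 32851 RefSeq promoters have as many. Hoxa5 (ENSMUSG00000038253.6) had 3 sites, 1 each of NELFCD, NABP1 and INTS9, for a mean of 1.01-fold.

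Within Hoxa, SPT5 sites were densest over Hoxa9, Hoxa10 and Hoxa13. Hoxa10, a regulator of the uterus and of blood cell formation, had 16 SPT5 sites (41.1-fold) beside 6.90 ± 10.7 in NELF and 5.14 ± 3.40 in Integrator, from 37 sites in all. Hoxa9, a regulator of blood stem cells, had 8 SPT5 sites (40.4-fold) beside 3.35 ± 6.70 and 8.44 ± 8.89, from 19 sites. Hoxa13, needed for digits and the genital tubercle, had 14 SPT5 sites (34.2-fold) of 29. NELF sites at Hoxa13 were 2 of NELFA and none of the 3 other subunits, and Integrator sites were 8 of INTS9, 4 of NABP1 and 1 of INTS11. Hoxa7 had 36 sites, with 23.9-fold in SPT5 and 13.8 ± 10.3 in NELF. At Hoxa9, Hoxa10 and Hoxa13 the NELF libraries had 1, 3 and 2 sites in all, and the spread between them was larger than their mean.

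Toward the anterior side of Hoxa, SPT5 sites were few. Hoxa2 to Hoxa6 had 4, 6, 10, 3 and 5 sites, of which SPT5 had 1, at Hoxa6.

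In Hoxd the leading gene was Hoxd11, which acts with Hoxa11 in the forearm and kidney. Hoxd11 (ENSMUSG00000042499.10, chromosome 2, 74517449 to 74525798, plus strand) had 28 sites of 10 libraries, all but NELFA. SPT5 had 11 of them, 40.04-fold. NELFB had 3, NELFCD 1 and NELFE 1, a mean of 13.02 ± 12.5-fold over the 4 NELF libraries. NABP1 had 4, INTS3 2, NABP2 2, INTS11 2, INIP 1 and INTS9 1, a mean of 8.40 ± 5.597-fold. Within 1 kb of each of its 2 RefSeq promoters there were 9 sites, of 4 and 5 libraries, although the first promoter has 4 CG and the second 25.

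Hoxd13 (ENSMUSG00000001819.4, chromosome 2, 74506367 to 74509656, plus strand), the most posterior gene and a regulator of digits, had 39 sites. SPT5 had 16 of them, 55.3-fold, the highest SPT5 density of any Hox gene. NABP1 had 9, NABP2 6 and INTS9 5, NELFB 2 and NELFE 1, and INTS3, INIP, INTS11, NELFA and NELFCD none. Hoxd12 had 16 sites, with 4 of SPT5 and none of NELF, and Hoxd10 had 13, with 4 of SPT5 and 1 of NELF. Toward the anterior end, Hoxd9, Hoxd8, Hoxd4, Hoxd3 and Hoxd1 had 2, 5, 4, 7 and 1 sites. The single Hoxd1 site was of NABP1, and the single SPT5 site of these 5 genes was at Hoxd3.

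**Figure D4:**
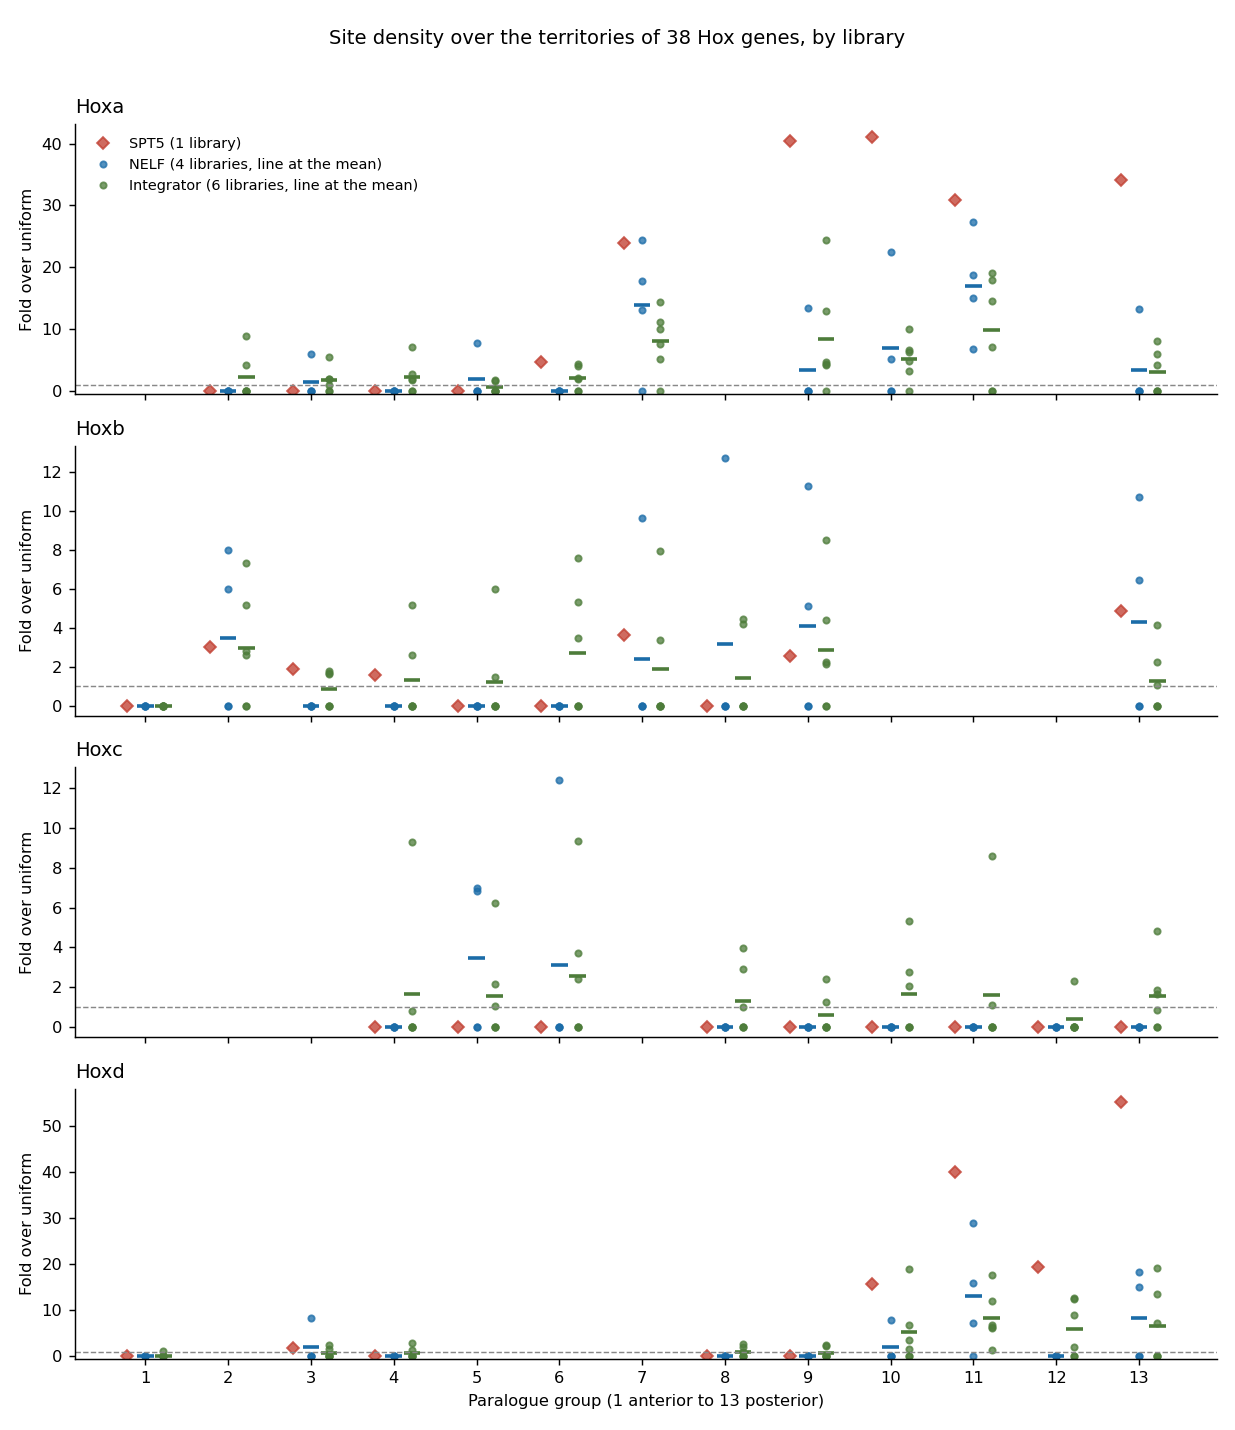
Fold over uniform density (y axis, scaled per cluster) of the territories of 38 Hox genes by paralogue group (x axis), with a point per library and lines at the NELF and Integrator means; the dashed line is uniform density. SPT5 exceeds 15-fold at Hoxa7, Hoxa9, Hoxa10, Hoxa11, Hoxa13 and Hoxd10 to Hoxd13 and stays under 5-fold at the other genes plotted.

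Genes of Hoxb and Hoxc had few sites each. In Hoxb the highest mean density was at Hoxb9 (ENSMUSG00000020875.8, chromosome 11, 96132771 to 96137909, plus strand), a gene of the thoracic region, with 10 sites of 7 libraries: INTS3, NABP1 and INTS9 had 2 each, and NELFCD, NELFE, SPT5 and INIP 1 each. Hoxb2 had 9 sites, Hoxb7 and Hoxb13 had 8 each, and Hoxb3 to Hoxb6 and Hoxb8 3 to 6 each. Hoxb1 (ENSMUSG00000018973.2, chromosome 11, 96227066 to 96229570, plus strand), a gene of the hindbrain, had 0 of 831994 sites in its territory of 13.47 kb, which allows 0.361 per 100000 sites. In Hoxc every gene had 2 to 6 sites, and none was of SPT5. Hoxc6 (ENSMUSG00000001661.4, chromosome 15, 102828688 to 102842312, plus strand), another thoracic gene, had the highest mean density, 2.54-fold, from 6 sites, 3 of NABP1 and 1 each of NELFE, INTS3 and INIP, and Hoxc12 (ENSMUSG00000050328.2) had 2, both of INTS9. Sites thus reached 38 of the 39 genes, while SPT5 sites reached 18 and NELF sites 19. Integrator, with 272 Hox sites against 49 of NELF and 101 of SPT5, reached 38.

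Sites lay near Hox gene starts more often than the length of the windows gives. Within 1 kb of an annotated start there were 128 of 422 sites, 30.3% (exact binomial interval 25.98 to 34.96), where 17.1% of the window length lies. The share was 42.9% in NELF (28.8 to 57.8), 36.6% in SPT5 (27.3 to 46.8) and 25.7% in Integrator (20.65 to 31.4). These intervals pool the sites of a group and leave out the spread between its libraries. A difference between the groups was not tested. By class the share was 23.3% for anterior, 35.6% for central and 30.5% for posterior genes. Coding exons held 11.1% of the sites and 7.82% of the length, introns 32.0% and 36.98%, untranslated or non-coding exons 19.7% and 15.7%, and stretches outside any Hox model 37.2% and 39.5%. Sites therefore lay over all parts of the clusters. The viral DNA had the strand of the nearest Hox gene in 54.5% of sites (49.6 to 59.3). The share was 58.5% in Integrator (52.35 to 64.4), 51.0% in NELF (36.3 to 65.6) and 45.5% in SPT5 (35.6 to 55.8), with sites pooled in the same way.

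The CG content of the territories moved with the densities in part. CG dinucleotides per kb were 21.6 over anterior, 27.4 over central and 28.1 over posterior territories, and 29.0 over Hoxa, 27.7 over Hoxd, 24.0 over Hoxb and 21.5 over Hoxc. Across the 39 genes the Spearman correlation of CG per kb with the mean fold was 0.365, and with the SPT5 fold 0.396, where genes of a cluster share neighbours and libraries share depth. The part of CG content in the densities was not tested.

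The clusters also hold non-coding genes, which share sites with the Hox genes they overlap. Hoxa11as, an antisense RNA that overlaps the start of Hoxa11, had 31 sites of 9 libraries, 9 of them of SPT5, 6 of NELF and 16 of Integrator. Gm20440, which overlaps Hoxd10 and Hoxd11, had 24 sites, 9 of them of SPT5. The microRNA genes of the clusters repress Hox and other transcripts. The mature 5p forms of Mir196b, Mir196a-2, Mir10a and Mir10b are shown because they fall into pairs that share a seed (bases 2 to 8, in capitals, from RefSeq, table build GRCm38.p6).
miR-196b-5p: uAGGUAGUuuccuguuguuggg
miR-196a-5p: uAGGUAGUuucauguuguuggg
miR-10a-5p: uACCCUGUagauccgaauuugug
miR-10b-5p: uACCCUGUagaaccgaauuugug
The miR-196 forms share the seed AGGUAGU and the miR-10 forms ACCCUGU. Members of a pair lie in different clusters. Within 5 kb of Mir196b, which lies inside the annotated model of Hoxa9, there were 29 sites, 14 of SPT5, 2 of NELF and 13 of Integrator, and within 5 kb of Mir196a-2 in Hoxc there was 1. Within 5 kb of Mir10a in Hoxb there were 5 sites, 1 of them of SPT5, and of Mir10b in Hoxd 2, with none of SPT5. Mir615 in Hoxc, whose 5p seed is in neither pair, had 4 sites within 5 kb, 2 of NELF and 2 of Integrator.

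No cluster differed between NELF and Integrator beyond the spread of their libraries. The 4 clusters were fitted together with windows of 100 kb over the rest of the genome with limma, on log2 of sites per 100000 plus 1. The difference, NELF minus Integrator, was 0.83 ± 0.85 (SE) at Hoxa, -0.42 ± 0.66 at Hoxb, -1.03 ± 0.698 at Hoxc and -0.66 ± 0.598 at Hoxd, beside a median of -0.25 over all features. The adjusted p-values of limma were 0.75, 0.849, 0.589 and 0.696. Of the 4, 0 had an unadjusted p under 0.05, beside 11.4% of all features. Of 11355 features tested, 0.132% were called higher in NELF and 0.0616% lower at an adjusted p of 0.05. Without NELFA the differences at Hoxb and Hoxd were 0.41 and 0.23, so their direction rests on that library, which had no site in either cluster. Without INIP the difference at Hoxa was 0.08 ± 0.37, so its size rests on that library.

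No Hox gene was called either. At a minimum mean of 2 sites, 9 Hox models of 8 genes could be tested among 9670 gene models. They were Hoxa3 (both models), Hoxa7, Hoxa9, Hoxa10, Hoxa11, Hoxd11, Hoxd12 and Hoxd13, so 31 of the 39 genes had too few sites. This fit counts sites in whole models with flanks, not in territories. Such models overlap and share sites, so the results are not separate. The Hoxa3 models held 50 and 60 sites, against 6 in the Hoxa3 territory. None of the 9 Hox models was called by limma, beside 0.982% of all models called higher and 0.238% lower in NELF. Of the 9, 0 had an unadjusted p under 0.05, beside 12.8% of all models. The largest difference was at Hoxa11, 0.86 ± 0.703 on the log2 scale (limma adjusted p = 0.645). The median over the 9 was -0.02, beside -0.12 over all models.

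SPT5 was set against the groups in a fit of 3 groups, added after the data had been seen, in which its lone library is assumed to vary like the others. At Hoxa the log2 difference was 1.60 ± 1.45 (SE) from NELF and 2.42 ± 1.396 from Integrator, and at Hoxd 2.80 ± 1.04 and 2.14 ± 1.01. At Hoxb it was 0.78 ± 1.13 and 0.36 ± 1.09, and at Hoxc -1.71 ± 1.22 and -2.75 ± 1.18. The adjusted p-values of limma were 0.999 against NELF and 1 against Integrator for every cluster. Of the 4 clusters, 1 against NELF (Hoxd) and 2 against Integrator (Hoxc and Hoxd) had an unadjusted p under 0.05, as 2.43% and 3.02% of all features did, and 0% of 11241 features were called. The Hoxa errors depend on INIP, which had no site there: without it the SPT5 difference was 1.60 ± 0.59 from NELF and 1.68 ± 0.578 from Integrator. INIP was singled out for its count at this same cluster, so the smaller errors are no support for an SPT5 excess. Of the 10 Hox models tested, 0 were called, as 0% of 9829 models were, and 4 had an unadjusted p under 0.05 in each comparison: Hoxa9, Hoxa10, Hoxa13 and Hoxd13. Over all models 3.09% did against NELF and 4.86% against Integrator. Without NELFA the count of Hox models against NELF was 1, Hoxa13. Hoxa13 reached the minimum of sites in this fit only through SPT5, which had 14 of its 29 sites, and not in the fit without SPT5. Its difference and its place in these counts are therefore no support for an SPT5 excess. The difference at Hoxa13 was 3.44 ± 1.33 from NELF and 3.18 ± 1.29 from Integrator. At Hoxd13, which could be tested in both fits, it was 3.20 ± 1.39 and 3.08 ± 1.34. With a lone SPT5 library no feature or gene passed in this fit, so the absence of a call says nothing about the Hox clusters.

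Of the Integrator libraries, 3 were run on more than 1 flow cell, and their values are given for each. INTS9 had 1.80-fold over the Hox windows on the flow cell it shared with NABP1 and NABP2 (1.36 to 2.35) and 4.26-fold on its other (2.38 to 7.02). NABP1 had 3.62-fold (2.80 to 4.6) on the shared flow cell, with 45 posterior and 10 anterior sites, and 2.24-fold (1.53 to 3.16) on its other, with 12 and 8. NABP2 had 2.54-fold on the shared flow cell and 2.27-fold on its other, where INTS3 had 2.53-fold and INIP 1.16-fold (0.378 to 2.72). INTS11, with 3.24-fold, had the same flow-cell label as the other run of INTS9. On the flow cell shared by INTS9, NABP1 and NABP2 alone, these 3 Integrator libraries ranged from 1.80 to 3.62. The runs of INTS9 differed from each other by more than their counting error.

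Set beside all protein-coding genes, a few Hox genes were among the densest in SPT5 while many had no SPT5 site. The mean fold of the 40 Hox models with their flanks was 8.43 in SPT5, where that of all 22350 models was 3.98, but 57.5% of Hox models had an SPT5 site, beside 65.8% of all. For INTS11 the means were 3.30 and 1.92, for NABP1 3.41 and 2.81, for NELFB 3.63 and 3.72, and for NELFA 2.19 and 3.43. They were 3.495 and 3.16 for NELFE, 2.90 and 2.84 for INTS3, 2.90 and 2.82 for NABP2 and 2.14 and 2.10 for INTS9. For NELFCD they were 2.76 and 3.37 and for INIP 1.095 and 1.79. By this mean over single models, which overlap, Hox models lay below all models in NELFA, NELFB, NELFCD and INIP. The merged windows of all protein-coding genes had 1.61-fold in NELFA and in NELFB, 1.55 in NELFCD and 1.36 in INIP. The merged Hox windows had 1.73, 3.00, 1.97 and 1.16 in these libraries. On that measure Hox lay below all genes in INIP alone of the 11 libraries. The Hox intervals of NELFA, NELFCD, NELFE and INIP included the value of all genes. Hoxd13 with its flanks had 19 SPT5 sites and 45.99-fold, and 1.12% of all genes were as dense in SPT5. For Hoxa10, with 25 sites, 1.37% were as dense, and for Hoxa11 1.61%. Of 26369 windows of 100 kb, 66 (0.25%) were as dense in SPT5 as the Hoxa cluster, 177 (0.671%) as Hoxd and 13.1% as Hoxb. The median over genes of the mean fold was 1.74 for Hox models and 1.35 for all.

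Genes that regulate or accompany Hox genes elsewhere in the genome ranged from uniform density to several times that. Over 19 Polycomb genes the mean fold was 3.58 ± 0.632 (n = 11), with Phc2 and Ezh2, the Polycomb methyltransferase, holding the most sites, 162 and 101. Over 12 MLL and Trithorax genes it was 3.76 ± 1.04, with 328 sites at Mll2 and 166 at Mll5. Over 9 cofactor genes of the Pbx, Meis and Pknox families, whose products bind DNA together with Hox proteins, it was 1.64 ± 0.215. Over 14 models of 13 other homeobox genes of the Antennapedia class it was 1.21 ± 0.375, led by En1 with 19 sites, and over 10 genes beside the clusters 1.81 ± 0.237, led by Cbx5 with 193. Limb and trunk regulators (13) had 3.19 ± 0.655 and developmental regulators of other tissues (23) 0.985 ± 0.398. The Hox windows, at 2.86 ± 1.56, lay between these last lists, with Hoxa above the first and Hoxc beside the second.

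In SPT5 the regulator and cofactor lists all lay below Hoxa and Hoxd. SPT5 had 4.13-fold over Polycomb genes, 5.34 over MLL and Trithorax genes, 1.41 over cofactors, 0.882 over the other homeobox genes, 3.66 over limb and trunk regulators and 0.782 over regulators of other tissues. Of the models that could be tested between NELF and Integrator, limma called 1 of 12 MLL and Trithorax genes, Dpy30, a shared subunit of MLL complexes (log2 difference 2.69 ± 0.733, adjusted p = 0.0486), higher in NELF. It called 0 of 17 Polycomb genes, 0 of 8 cofactors, 0 of 5 genes beside the clusters, 0 of 5 limb and trunk regulators and 0 of 2 regulators of other tissues, beside 0.982% of all models called higher and 0.238% lower. No other homeobox gene had enough sites. Fibroblast genes, which check the labelled cell type through site density alone, had 6.07 ± 2.78 over 11 genes and 10.98 in SPT5, with 137 sites at Vim and 111 at Col1a1, while markers of other cells had 1.96 ± 0.585 over 8 and 3.38 in SPT5, with 68 sites at Cd68 and 45 at Tubb3. The densities of the lists overlapped: the macrophage marker Cd68 had 15.5-fold and Col1a1 14.3-fold, while the fibroblast gene Col3a1 had 1.21-fold, so site density does not separate these cell types gene by gene.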

How the data were processed

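Integration sites were analysed in 11 libraries, 1 per fused protein. The values the authors deposited are genome positions, not counts. Per the file headers, an entry holds the 0-based position of the base next to the LTR and its strand. All coordinates here are 1-based. Per the labels' protocols, virus-host junctions were recovered by ligation of a linker and nested PCR. The submitters' processing notes name mm9. No aligner or filter is given in the sources used here.

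The 873534 entries were collapsed to 831994 distinct sites. Hox models came from GENCODE for mm9, and a longer read-through model of Hoxa3 was left out of the territories. Densities were divided by uniform density over 2638992663 bases. NELF (4 libraries) and Integrator (6) were compared with limma 3.58.1 in R 4.3.3, with a mean-variance trend and robust variances, on log2(sites per 100000 + 1) for features averaging 2 or more sites, with Benjamini-Hochberg adjustment at 0.05 over all features. The fit was tested on simulated data. Other values were computed with Python 3.11.15 and scipy 1.17.1. No p is given for sums over Hox genes. Alternatives covered flanks, filters, pseudocounts, window lengths, class limits and leaving out each library.

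Sequences came from RefSeq tables and the mm9 genome. A promoter was found for 22 of 39 Hox genes. That of Hoxa11 and the second of Hoxd11 lie in annotated untranslated sequence and are not printed, nor is the first of Hoxd11, which includes 50 bases past its RefSeq start. Hoxb9, Hoxc6 and Hoxc12 had none in the table. The rule names the genes of highest and of lowest mean density in each cluster, and the 2 genes of each list with the most sites. Other named Hox genes were chosen after their values were seen. The members and lists were chosen with earlier results of these data known. The values of 1 Hox gene are part of the totals and are not reported by name here.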

Additional observations from a re-analysis of the deposited data

Results flagged for a closer look

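The INIP library had 0-fold density over the Hoxa cluster, with 0 of 24907 sites, and stood apart from the 5 other Integrator libraries, which had 4.11-fold to 6.14-fold. Among the NELF and Integrator libraries it was the only one to stand apart in 16 groups of values examined by Dixon's criterion, which marks about 1 in 20 groups by chance. SPT5, as a lone library, could not be examined in this way. Uniform density gives INIP 1.08 sites there, so its count allows up to 2.79-fold by the limit of 3 counts, and the exact interval ends at 3.43. INIP had 2 sites in Hoxb, 2 in Hoxc and 1 in Hoxd.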

How the results depend on the processing

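The mean Hox density kept its side of uniform density in 19 alternatives and the ratio of posterior to anterior density stayed above 1 in 20. The density was 2.43 to 3.03 with each library left out in turn, the lowest without SPT5, and 2.70 to 3.04 with other flanks. The ratio was 2.71 to 4.06 with each library left out, 2.71 against groups 1 to 8, 2.86 against groups 1 to 3, 2.89 by the nearest gene start and 3.71 with all entries. It was 2.44 without Hoxd, 5.36 without Hoxc and 1.34 without Hoxa and Hoxd together, the last chosen after seeing the data. Leaving out 1 library gave NELF minus Integrator differences of 0.08 to 1.04 at Hoxa, -0.86 to 0.41 at Hoxb, -1.35 to -0.46 at Hoxc and -1.13 to 0.23 at Hoxd. Only Hoxb (0.41) and Hoxd (0.23) changed sign, both without NELFA. Without it, SPT5 minus NELF at Hoxb was -0.04. Over 69 alternatives the limma adjusted p of a cluster ranged from 0.45 to 0.957. Between NELF and Integrator, 0 clusters and 0 Hox genes passed the threshold under any setting run. The SPT5 comparisons are left out of this statement, because with a lone SPT5 library the absence of a call says nothing about the Hox clusters. With a minimum mean of 10 sites, Hoxa was the only cluster and no Hox gene could be tested. Calls over all genes, 95 higher and 23 lower in NELF, became 23 and 44 without flanks, 158 and 44 at a pseudocount of 5, 68 and 9 at 0.5, 67 and 3 at a minimum mean of 10 and 70 to 115 and 7 to 35 with 1 library left out. Calls over windows, 15 and 7, became 25 and 23 at a pseudocount of 5, 11 and 0 at 0.5, 27 and 14 without the minimum, 6 and 12 with neither trend nor robust variances, 9 and 5 in windows of 200 kb, 24 and 11 in windows of 50 kb, 15 and 2 at a minimum mean of 10 and 10 to 19 and 2 to 21 with 1 library left out. Against Integrator, SPT5 had 1 gene called at a pseudocount of 5, and 1 window at 0.5 and 1 without NELFE, none of them Hox. Depth limits the NELF libraries, with 9 to 16 Hox sites each. No paired analysis was possible because the replicate numbers only name the subunits of a complex.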
